A study of Mus musculus with 6 samples.

Results

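The choroid plexus is the epithelium inside the brain ventricles that makes cerebrospinal fluid, and 10 genes of its secretory and receptor equipment were followed across the hippocampal RNA of single mice. These were Enpp2, Kl, Wfdc2, F5, Folr1, Prlr, Otx2, Calml4, Clic6 and Tmem72. They were chosen by symbol with earlier results of these data known, but without a threshold on their values. All 10 were found among the 15423 genes of the deposited count table. RNA-seq was done on 3 control (CTR) mice from a standard cycle (12 h light, 12 h dark) and on 3 Short Day (SD) mice. The SD mice came from breeders moved at 6 weeks of age to a cycle of 8 h light at 100 lux and 8 h dark, and they stayed on that cycle through gestation and until postnatal day 42. All mice were C57BL/6J, and they carry the numbers 1, 2 and 5 (CTR) and 2, 5 and 6 (SD) of their labels. The sources used here give neither the age at RNA collection nor the litter of a mouse. The paper describes dissected hippocampi, while the extraction protocol of the labels speaks of cells and spheroids.

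Choroid plexus epithelial cells carry a brush border on the ventricular side, take up folate and hormones from the blood through receptors, and release enzymes, carrier proteins and growth factors into the cerebrospinal fluid. The plexus of the lateral ventricle lies along the hippocampus. In adult brain Otx2, Folr1 and Kl are well known from this epithelium, but Enpp2 is also made by oligodendrocytes and Kl also by neurons, so not every transcript of these genes comes from the plexus.

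Total counts were 23300710 to 30035148 in CTR mice and 25755316 to 34447082 in SD mice. All 18 listed genes of hippocampal principal neurons were measured and none was called different. Ribosomal precursor RNA took 1.84% of the counts of CTR mouse 1 and at most 0.231% in any other mouse. By Xist and Ddx3y counts, CTR mouse 5 was female and the other 5 mice were male, so sex was not balanced and was not in the model. Levels are in CPM after TMM scaling of library sizes, with means ± standard deviation over 3 mice. Fold changes compare SD with CTR, each with the standard error (SE) of its log2 value. A gene was called when the quasi-likelihood test of edgeR gave p up to 0.05 before adjustment and the log2 fold change was 0.58 or more in size, the cutoffs in the methods of the study. With litters not known, the tests cover no more than the spread among these 6 mice, part of which may be technical.

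All 10 genes were called higher in the SD hippocampi, where the same rule called 2.1% of the 15345 tested genes higher and 0.88% lower. These genes were chosen with earlier results of these data known, and the count is no independent support. Their log2 fold changes ran from 1.31 in Otx2 to 2.14 in Wfdc2 with a median of 1.64, that is 2.48-fold to 4.42-fold. None had an adjusted p under 0.05 in edgeR (0.51 to 0.59), and DESeq2 called 6 of the 10 against 1.47% of its tested genes, with adjusted p-values of 0.35 to 0.83. DESeq2 gave 0.179% of its genes an adjusted p under 0.05 and a higher level in SD mice, and none of the 10 was among them. The difference was carried by SD mice 5 and 6, which had the highest levels in all 10 genes, and by CTR mouse 2, which had the lowest in all 10. SD mouse 2 lay between the lowest and the highest CTR mouse in 8 of the 10. Without CTR mouse 2 all 10 were still called, at log2 fold changes of 0.88 to 1.73, and without CTR mouse 5, the female, at 1.72 to 3.49. Without CTR mouse 1 the called genes numbered 7, without SD mouse 5 they numbered 6 and without SD mouse 6 they numbered 5. In bulk RNA of this kind, more cells of a type and more RNA per cell cannot be told apart. Only 2 of the 10 genes, Calml4 and F5, had all SD mice above all CTR mice, as did 6.11% of all tested genes (6.2% had all SD mice below), and in both the gap between CTR mouse 5 and SD mouse 2 was small.

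**Figure D1:**
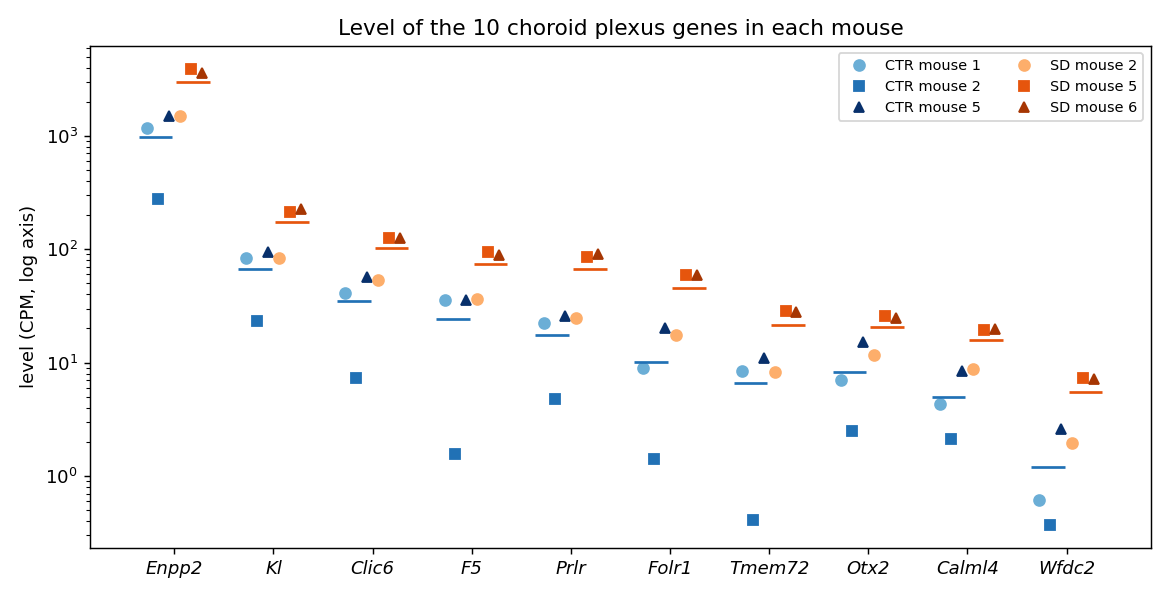
Level in CPM on a log axis of each of the 10 genes in each of the 6 mice, with horizontal lines at the mean of the 3 CTR mice (blue) and of the 3 SD mice (orange). CTR mouse 2 is the lowest point in all 10 genes, SD mice 5 and 6 are the 2 highest, and SD mouse 2 lies beside CTR mouse 5.

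Among the secreted products, Enpp2 gave most of the signal. It encodes autotaxin, the extracellular enzyme that makes lysophosphatidic acid, and lies on chromosome 15 from 54838901 to 54952892 of GRCm38, the build also called mm10, on the minus strand. Enpp2 was measured at 1168, 275 and 1508 CPM in CTR mice 1, 2 and 5, and at 1492, 3901 and 3606 CPM in SD mice 2, 5 and 6. SD mouse 2 was at the level of CTR mouse 5, and SD mice 5 and 6 stood above every other mouse. Its mean was 984 ± 637 CPM in CTR mice and 3000 ± 1314 CPM in SD mice. The log2 fold change was 1.61 (SE 0.52, p of 0.0114 and adjusted p = 0.54, edgeR) and the call was kept with DESeq2 (p of 0.0135) and whichever mouse was left out. Enpp2 alone made up 84.3% to 86.3% of the summed counts of the 10 genes in every mouse. As a share of all counts, that sum was 0.135%, 0.0316% and 0.180% for CTR mice 1, 2 and 5, while SD mice 2, 5 and 6 had 0.174%, 0.461% and 0.429%. Without Enpp2 the other 9 genes summed to 212, 43.5 and 270 CPM in the CTR mice and 246, 661 and 672 CPM in the SD mice, in the same order of mice as Enpp2 apart from SD mice 5 and 6.

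Kl, on chromosome 5 from 150952607 to 150993817 on the plus strand, encodes klotho, a co-receptor of fibroblast growth factor 23 whose outer part is shed into the cerebrospinal fluid. Its levels were 83.4, 23.1 and 93.7 CPM in CTR mice 1, 2 and 5, and 83.7, 214 and 227 CPM in SD mice 2, 5 and 6. SD mouse 2 was level with CTR mouse 1 and below CTR mouse 5. Its mean was 66.7 ± 38.1 CPM in CTR mice and 175 ± 79.3 CPM in SD mice. Kl had a log2 fold change of 1.39 (SE 0.47, p of 0.0139 and adjusted p = 0.55, edgeR), and was called by DESeq2 (p of 0.0477) but not without SD mouse 6 (p of 0.0569, log2 fold change 1.16, edgeR).

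Wfdc2, on chromosome 2 from 164562413 to 164568510 on the plus strand, encodes a small secreted protein of the whey acidic protein family. It was the least abundant of the 10 by CPM, with counts of 14, 9 and 79 for CTR mice 1, 2 and 5, and of 50, 217 and 248 for SD mice 2, 5 and 6. In CPM these were 0.613, 0.371 and 2.59 against 1.94, 7.34 and 7.18. Here CTR mouse 1 lay near the low level of CTR mouse 2, and SD mouse 2 lay below CTR mouse 5. Its mean was 1.19 ± 1.22 CPM in CTR mice and 5.49 ± 3.07 CPM in SD mice. Wfdc2 had the largest log2 fold change of the 10 genes, 2.14 (SE 0.63, p of 0.00677 and adjusted p = 0.51, edgeR, and p of 0.0225 in DESeq2), and without CTR mouse 5 it became 3.49.

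F5, on chromosome 1 from 164151838 to 164220277 on the plus strand, encodes coagulation factor V, better known as a liver product of the blood clotting cascade. It was at 35.4, 1.57 and 36.0 CPM in CTR mice 1, 2 and 5, and at 36.1, 94.98 and 89.2 CPM in SD mice 2, 5 and 6. CTR mice 1 and 5 and SD mouse 2 were nearly equal, while CTR mouse 2 had only 38 counts. Its mean was 24.3 ± 19.7 CPM in CTR mice and 73.4 ± 32.5 CPM in SD mice. The log2 fold change was 1.59 (SE 0.71, p of 0.0478 and adjusted p = 0.59, edgeR). This was the weakest call of the 10: DESeq2 gave p of 0.157, and it was lost without CTR mouse 1 (p of 0.0510), SD mouse 5 (p of 0.1199) or SD mouse 6 (p of 0.122).

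Of the receptors, Folr1 encodes folate receptor alpha, which carries folate from blood to cerebrospinal fluid, and lies on chromosome 7 from 101858331 to 101870788 on the minus strand. Folr1 was at 8.90, 1.40 and 20.2 CPM in CTR mice 1, 2 and 5, and at 17.7, 58.8 and 59.7 CPM in SD mice 2, 5 and 6. The CTR mice alone spanned 14.4-fold, more than the 3.33-fold between SD mice 2 and 5. Its mean was 10.2 ± 9.46 CPM in CTR mice and 45.4 ± 24.0 CPM in SD mice. Folr1 had a log2 fold change of 2.14 (SE 0.67, p of 0.00924 and adjusted p = 0.51, edgeR, and p of 0.0370 in DESeq2), and kept its call whichever mouse was left out.

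Prlr encodes the prolactin receptor, a cytokine receptor for the pituitary hormone prolactin, and lies on chromosome 15 from 10177238 to 10349180 on the plus strand. CTR mice 1, 2 and 5 had 22.6, 4.83 and 25.6 CPM and SD mice 2, 5 and 6 had 24.6, 85.6 and 90.2 CPM of Prlr. SD mouse 2 again fell between CTR mice 1 and 5, and SD mice 5 and 6 were over 3 times as high as any other mouse. Its mean was 17.7 ± 11.2 CPM in CTR mice and 66.8 ± 36.6 CPM in SD mice. The log2 fold change of Prlr was 1.91 (SE 0.56, p of 0.00618 and adjusted p = 0.51, edgeR, and p of 0.0218 in DESeq2), with the call kept whichever mouse was left out. In the annotation an exon of the gene model Gm21973 overlaps Prlr on the same strand, so reads there are uncertain.

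Otx2, the homeobox transcription factor gene that specifies and maintains choroid plexus epithelium, lies on chromosome 14 from 48657677 to 48673819 on the minus strand, with an overlap by the gene model Gm49154 on the same strand. Otx2 reached 6.97, 2.47 and 15.3 CPM in CTR mice 1, 2 and 5, and 11.6, 26.0 and 24.5 CPM in SD mice 2, 5 and 6. The gap between CTR mouse 5 and SD mice 5 and 6 was the narrowest of the 10 genes, at 1.70-fold for SD mouse 5. Its mean was 8.25 ± 6.51 CPM in CTR mice and 20.7 ± 7.89 CPM in SD mice. Otx2 had the smallest log2 fold change of the set, 1.31 (SE 0.49, p of 0.0239 and adjusted p = 0.55, edgeR). DESeq2 did not call it (p of 0.0821), nor did edgeR without CTR mouse 1 (p of 0.0777), SD mouse 5 (p of 0.0727) or SD mouse 6 (p of 0.0760).

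Since the 10 genes varied together and one of them encodes a transcription factor, RefSeq promoters (GRCm38.p6, the 250 bases before each start site) were searched on both strands for TAATCC, the motif of the OTX family, and for clock motifs, the E-box CACGTG and the D-box TTATGTAA. The table has 13 start sites for 7 of the 10 genes, and Enpp2, Folr1 and Clic6 were not searched. TAATCC was found before 1 start site, of Otx2 itself, against 6.25% of all 32851 promoters. The D-box was found before 1, of Prlr, against 0.819% of all, and the E-box before none, against 6.02%. The matched stretches are shown because they are the only matches among these promoters, with the motif in capitals. The Otx2 stretch (chr14:48665304-48665331, minus strand), which also lies in an untranslated exon of another Otx2 transcript, holds TAATCC on its opposite strand, 211 bases before one of the 4 start sites of the gene, and the Prlr stretch (chr15:10293402-10293431, plus strand) holds the D-box on its opposite strand, 238 bases before one of 3 start sites.
Otx2 site: gtgtgcccctcGGATTAtctcgttagtt
Prlr site: tgtaatttttgTTACATAAaagatatagga
These matches describe the sequence only.

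Calml4, a calmodulin-like gene whose protein is a light chain of a myosin in brush border microvilli, lies on chromosome 9 from 62858080 to 62875921 on the plus strand. Calml4 was at 4.34, 2.10 and 8.38 CPM in CTR mice 1, 2 and 5, and at 8.85, 19.3 and 19.6 CPM in SD mice 2, 5 and 6. All SD mice were above all CTR mice, but SD mouse 2 was only 1.06 times as high as CTR mouse 5. Its mean was 4.94 ± 3.18 CPM in CTR mice and 15.9 ± 6.11 CPM in SD mice. It had the smallest p of the 10 genes (log2 fold change 1.67, SE 0.42, p of 0.00264 and adjusted p = 0.51 in edgeR and p of 0.00846 in DESeq2), which ranked it 62nd of all tested genes. The call of Calml4 was kept whichever mouse was left out.

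Clic6, of the chloride intracellular channel family, lies on chromosome 16 from 92485736 to 92541243 on the plus strand. It had 41.2, 7.26 and 57.3 CPM in CTR mice 1, 2 and 5, and 53.4, 126 and 126 CPM in SD mice 2, 5 and 6. SD mouse 2 was between CTR mice 1 and 5. Its mean was 35.3 ± 25.5 CPM in CTR mice and 102 ± 42.0 CPM in SD mice. The log2 fold change of Clic6 was 1.53 (SE 0.55, p of 0.02003 and adjusted p = 0.55, edgeR), and its call was lost in DESeq2 (p of 0.0698) and without SD mouse 5 (p of 0.0564) or SD mouse 6 (p of 0.0667).

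Tmem72, a transmembrane protein gene on chromosome 6 from 116679063 to 116716913 on the minus strand, had the widest range, 68.7-fold from the lowest mouse to the highest. It was at 8.41, 0.412 and 10.97 CPM in CTR mice 1, 2 and 5, where CTR mouse 2 had 10 counts, and at 8.27, 28.3 and 28.2 CPM in SD mice 2, 5 and 6. SD mouse 2 was below CTR mice 1 and 5. Its mean was 6.60 ± 5.51 CPM in CTR mice and 21.6 ± 11.5 CPM in SD mice. Tmem72 had a log2 fold change of 1.70 (SE 0.70, p of 0.0346 and adjusted p = 0.57, edgeR), and was not called by DESeq2 (p of 0.143) or without CTR mouse 1 (p of 0.0585), SD mouse 5 (p of 0.0971) or SD mouse 6 (p of 0.112).

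**Figure D2:**
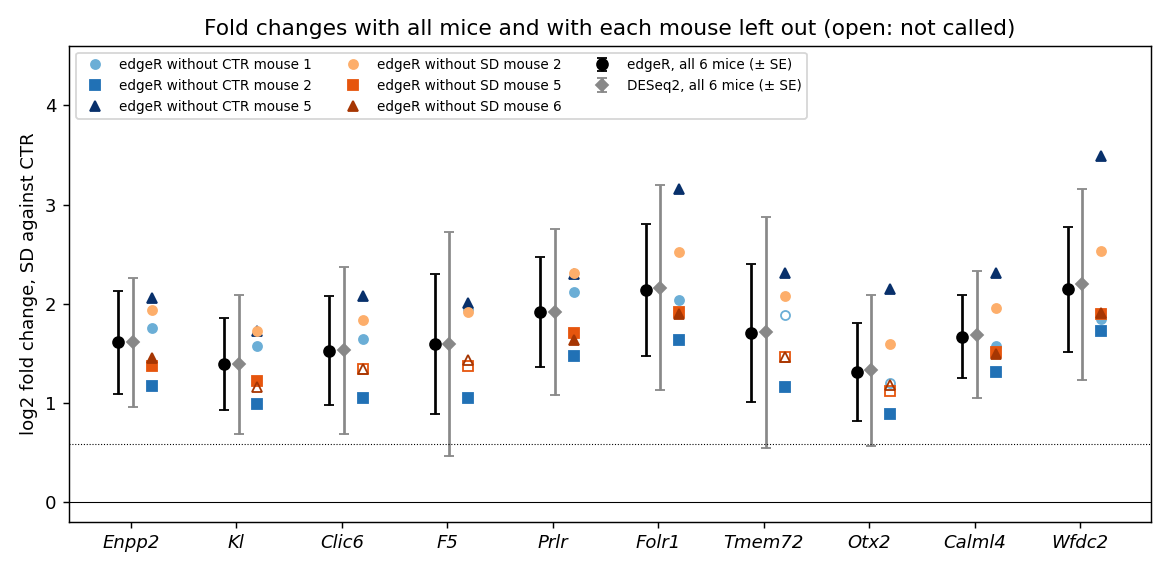
Log2 fold change, SD against CTR, of the 10 genes in edgeR (black, ± SE) and DESeq2 (grey, ± SE) with all 6 mice, and in edgeR with each mouse left out (coloured, open where the gene was not called). The dotted line is the cutoff of 0.58. All values are above it, and the open symbols are of Kl, Clic6, F5, Tmem72 and Otx2.

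Levels were also taken per kilobase of exon, merged over all annotated transcripts of a gene, which is only a rough scale between genes. The mean in CTR mice ran from 0.384 CPM per kb in Tmem72 to 170 CPM per kb in Enpp2. Tmem72 and Prlr have the longest merged exons of the 10, 17177 and 15339 bases, which lowers their values. Before division by length, Tmem72 at 6.60 CPM was above Calml4 at 4.94 and Wfdc2 at 1.19 CPM in CTR mice. Clic6 came next at 9.01 CPM per kb in CTR mice, then Kl at 7.15, Folr1 at 4.43 and F5 at 3.27. In SD mice these levels were 519 CPM per kb for Enpp2, 26.0 for Clic6, 18.8 for Kl, 19.8 for Folr1 and 9.88 for F5. Otx2, Calml4, Prlr and Wfdc2 were between 1.05 and 1.95 CPM per kb in CTR mice and between 4.35 and 4.91 in SD mice. The groups overlap in 8 of the 10 genes, and neighbours in the order such as Kl and Folr1 in SD mice do not differ beyond their spread.

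The genes kept nearly the same order of mice but not the same proportions. From lowest to highest, 7 of the 10 genes ran from CTR mouse 2 to CTR mouse 1, SD mouse 2 and CTR mouse 5, followed by SD mice 5 and 6 in either order. SD mice 5 and 6 were alike, with the level in mouse 6 at 0.924 to 1.06 times that in mouse 5. SD mouse 2 and CTR mouse 5 were also close, with ratios of 0.748 to 1.06. The widest disagreement was in the CTR mice. CTR mouse 1 was at 0.236 times the level of CTR mouse 5 for Wfdc2, 0.440 for Folr1, 0.455 for Otx2 and 0.518 for Calml4, but at 0.719 for Clic6 and up to 0.983 for F5 among the other 6 genes. CTR mouse 1 is also the mouse with the most ribosomal precursor RNA, whose part in this was not tested. CTR mouse 5 exceeded CTR mouse 2 by 26.6-fold in Tmem72 and 22.9-fold in F5, but by 4.06-fold in Kl and 3.98-fold in Calml4. This grouping of genes was described after the values were seen.

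**Figure D3:**
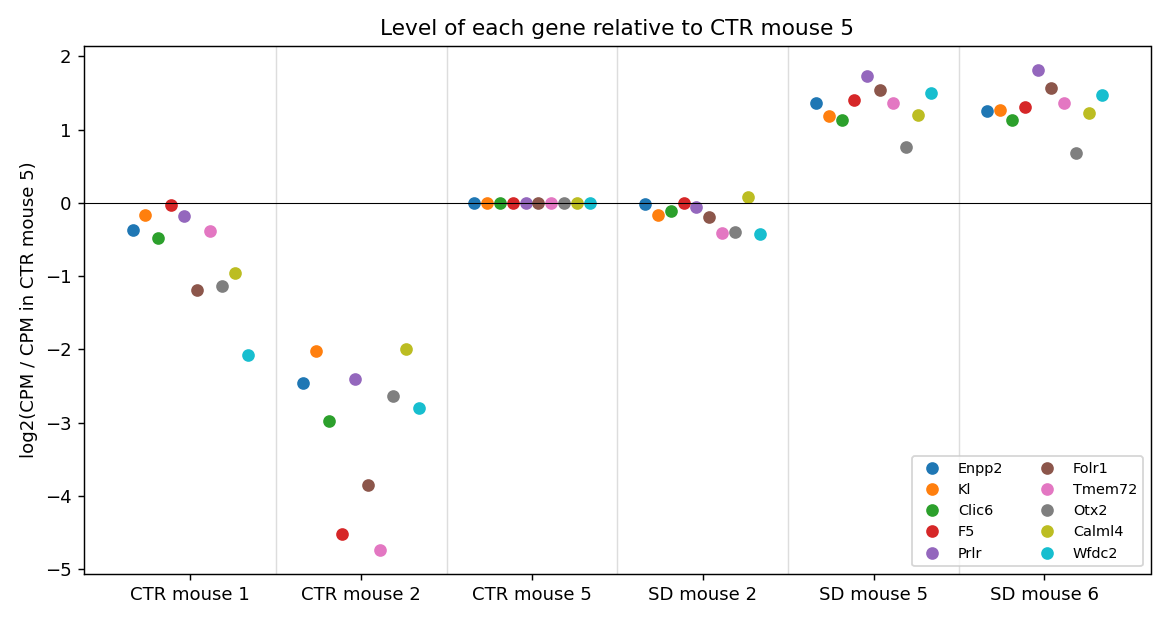
Log2 ratio of the level of each of the 10 genes in each mouse to its level in CTR mouse 5, which is therefore at 0. Wfdc2, Folr1, Otx2 and Calml4 are the lowest points of CTR mouse 1, Tmem72, F5 and Folr1 are the lowest of CTR mouse 2, and the points of SD mice 5 and 6 lie at nearly the same heights.

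The rest of the choroid plexus epithelium moved with these genes. Of 40 other genes listed for it, also with earlier results of these data known, 35 were called higher (2.1% of all tested genes were) and 0 lower. Their median log2 fold change was 1.34, beside 1.64 for the 10 genes and 0.0015 for all tested genes. DESeq2 called 18 of the 40 higher, against 1.47% of its tested genes. The called ones of smallest p were Igfbp2, whose product binds insulin-like growth factors (log2 fold change 1.42, SE 0.36), the collagen gene Col9a3 (1.16, SE 0.30), the retinol dehydrogenase gene Rdh5 (1.59, SE 0.44) and the carbonic anhydrase gene Car12 (0.90, SE 0.25). The 5 not called were the cation channel gene Trpv4 at a log2 fold change of 1.35, the transcription factor gene Lmx1a at 0.91, Mdfi at 0.80, the retinol transporter gene Stra6 at 0.55 and the calcium pump gene Atp2b3, which neurons express strongly, at 0.26. CTR mouse 2 was lowest in 38 of the 40, and SD mice 5 and 6 were the 2 highest in 39. With SD mouse 5 left out the called members of this list numbered 19, and with SD mouse 6 left out 16, while those of the 10 genes numbered 6 and 5.

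To see whether the 10 genes differed beyond the rest of the epithelium, their counts were taken per 1000 counts of the 40 other genes in the same mouse. The difference in mean log2 ratio, SD minus CTR, was above 0 for all 10 genes, from 0.51 in Kl to 1.66 in Folr1, with two-sided exact permutation p-values of 0.10 to 0.40, where 0.10 is the smallest that 3 against 3 mice allow. Prlr was at 22.2, 9.16 and 22.6 per 1000 in CTR mice 1, 2 and 5 and at 23.6, 40.5 and 42.2 per 1000 in SD mice 2, 5 and 6. For Otx2 the same values were 6.84, 4.70 and 13.5 per 1000 in CTR mice and 11.2, 12.3 and 11.5 in SD mice, so the groups overlapped. Without CTR mouse 2 these differences were smaller for all 10 genes, at 0.21 to 1.25, with Kl at 0.21, Folr1 at 0.92, Tmem72 at 0.32 and F5 at 0.28. Over the 6 ways to leave out a mouse they ran from 0.21 to 2.29, all above 0. The denominator holds Atp2b3, which made up 16.99% to 45.2% of it, and without Atp2b3 the differences were 0.24 to 1.39, again above 0 for all 10, with exact permutation p-values of 0.10 to 0.40. With 6 of the other genes as denominator, Aqp1, Kcnj13, Kcne2, Slc4a5, Cldn2 and Sostdc1, chosen after the data were seen, the difference was above 0 for 4 genes only, with a range of -0.82 in Kl to 0.33 in Folr1 and exact permutation p-values of 0.20 to 0.80. The summed counts of the 40 genes were 12772 in CTR mouse 2 and 73871 in SD mouse 6, while those of the 6 genes were 180 and 9702. The sum of the 40 thus varied less, and a change common to the plexus genes can by itself bring such ratios above 0. The ratios to the 40 genes therefore cannot decide the question, and no gene of the 10 was shown to differ from the rest of the epithelium.

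The genes outside the set whose log2 CPM over the 6 mice was most like the mean of the 10 were Prr32, Ecrg4, Sostdc1, Defb11, Slc2a12, Cldn2, B4galt1 and Crb3, with Pearson correlations of 0.996 to 0.9998 over 6 mice. Of these, 5 are in the choroid plexus list, and Defb11 encodes a beta-defensin, B4galt1 a galactosyltransferase and Crb3 a protein of apical cell polarity. Prr32 was at 3.72, 0.825 and 6.24 CPM in CTR mice 1, 2 and 5, and at 5.67, 16.3 and 15.6 CPM in SD mice 2, 5 and 6. These values share the 6 libraries, and 162 of 13583 ranked genes had a correlation over 0.95, among them 30 of the 40 choroid plexus genes. Within the set, the correlation with the mean of the other 9 genes was lowest for Wfdc2, at 0.928, and highest for Folr1, at 0.998.

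The genes that work with the 10 were called about as seldom as tested genes in general. Over 9 lists of pathway and family partners, 92 genes were tested, and 3 were called higher and 1 lower (2.98% of all tested genes were called in either direction). Of 11 genes of lysophosphatidic acid signalling, which Enpp2 feeds, 1 was called higher, the phosphatase gene Plpp2 (log2 fold change 0.59, SE 0.21), and the most abundant, Plppr4, was at 0.16. The receptor gene Lpar1 had a log2 fold change of 0.37 (SE 0.12). Of 19 genes of folate uptake and one-carbon metabolism none was called, and the median log2 fold change was 0.14. The most abundant of them, the folate dehydrogenase gene Aldh1l1, was at -0.09. Of the other folate carriers, the reduced folate carrier gene Slc19a1 was at 0.28 and the proton-coupled transporter gene Slc46a1 at 0.46.

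Downstream of Prlr, none of 9 genes of prolactin and growth hormone signalling was called, and the median log2 fold change was 0.10, with the kinase gene Jak2 at -0.14 and the most abundant, Stat3, at 0.04. The 9 genes around klotho and its receptors held none called, with a median of -0.06, and the most abundant, Fgfr3, was at -0.26. None of 12 other coagulation genes was called, with a median of -0.14, and the most abundant, Mcfd2, a cargo receptor subunit for factor V, was at 0.20. DESeq2 called the thrombomodulin gene Thbd lower (log2 fold change -0.58 in edgeR, just short of the cutoff).

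Beside Otx2, 2 of 13 genes of the roof plate and choroid plexus lineage were called higher, the homeobox gene Msx1 (log2 fold change 1.18, SE 0.34), which is also in the choroid plexus list, and the growth factor gene Bmp6 (0.64, SE 0.29). The related gene Otx1 was at 0.0035, and the most abundant of this list, Zic1, at -0.08. Among 10 genes of brush border microvilli, partners of Calml4 and ezrin, only Espn was called, lower at a log2 fold change of -0.98 (SE 0.35) with a mean of 0.95 CPM in CTR mice and 0.472 CPM in SD mice, and it was not called by DESeq2. The most abundant, Rdx, was at 0.11. None of the 4 other chloride intracellular channel genes was called (Clic4, the most abundant, at 0.22), nor any of 5 other genes with whey acidic protein domains (Wfikkn2, the most abundant, at -0.02).

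**Figure D4:**
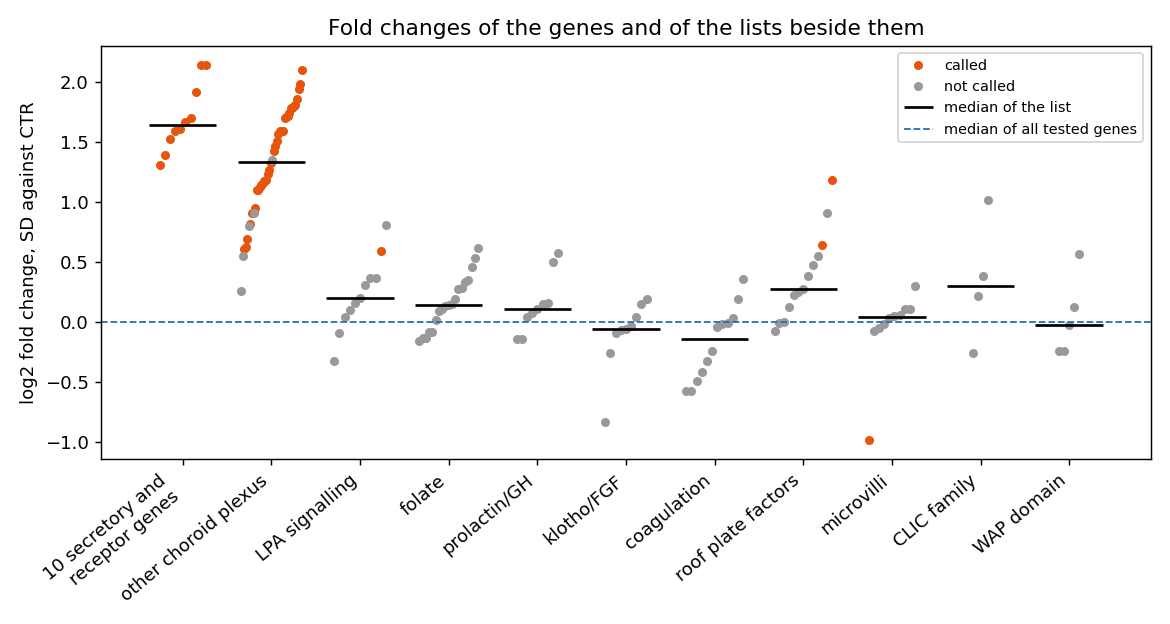
Log2 fold change, SD against CTR, of every tested gene of the set of 10, of the other choroid plexus genes and of the 9 partner lists, called genes in orange, with the median of each list (black) and of all tested genes (dashed, 0.0015). The 10 genes and the choroid plexus list lie above the rest, with medians of 1.64 and 1.34, and the partner lists have medians of -0.14 to 0.30.

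Markers of other cell types moved less, or in another order of mice. Over the 13 oligodendrocyte genes, which matter because these cells also make Enpp2, 1 was called higher. The median log2 fold change was 0.38, with the myelin gene Mbp at 0.37. All 13 were above 0, against 7736 of the 15345 tested genes. In 5 of the 13 all SD mice were above all CTR mice, against 6.11% of tested genes. The summed level of the 13 genes was 7263 to 9422 CPM in CTR mice and 9252 to 11189 CPM in SD mice. CTR mouse 2, lowest in Enpp2, was the highest CTR mouse here. Of 16 ependymal genes 6 were called higher, against 2.1% of all tested genes, and the median log2 fold change of the 16 was 0.50. Foxj1 and Rarres2, the most abundant, were at 0.55 and 0.42. Summed, the 16 genes had 48.4 to 99.5 CPM in CTR mice and 90.0 to 114 CPM in SD mice. SD mouse 2 was above SD mouse 5 in this sum, unlike in all 10 genes of the set. For the 14 leptomeningeal genes the median log2 fold change was -0.34, with 6 of them above 0. Called were Igfbp2, higher and also in the choroid plexus list, and Crabp2, a retinoic acid binding protein gene, lower, and the most abundant, Dcn, was at 0.17. Their sum was 143 to 247 CPM in CTR mice and 192 to 281 CPM in SD mice, but without Igfbp2 it was 123 to 209 CPM in CTR mice and 153 to 168 CPM in SD mice, with all SD mice inside the CTR range. None of 10 endothelial genes was called (median log2 fold change -0.09, 204 to 239 CPM summed in CTR mice, 167 to 232 CPM in SD mice, with Slco1a4 at -0.02 and Flt1 at -0.27), and none of the 18 hippocampal genes, at 2187 to 2356 CPM summed in CTR mice and 2259 to 2436 CPM in SD mice, with Nptx1 at -0.01 and C1ql3 at 0.11.

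Of all tested genes 0.88% were called lower and 2.1% higher, but of the 13 thalamic genes 7 were called lower and none higher. Their median was -0.65 on the log2 scale, and Slc17a6 and Ntng1, the most abundant, were at -0.65 and -0.32. Their sum was 218, 440 and 264 CPM in CTR mice 1, 2 and 5, and 236, 212 and 197 CPM in SD mice 2, 5 and 6. CTR mouse 2, lowest in all 10 genes of the set, was highest in this sum, and SD mice 5 and 6, highest in the set, were lowest. Of the thalamic genes tested, 1 had a mouse at 0 counts, as did 1 of the 40 other choroid plexus genes. No marker of the other cell types did. The part that the tissue composition of each dissection has in the differences of the 10 genes was not tested.

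**Figure D5:**
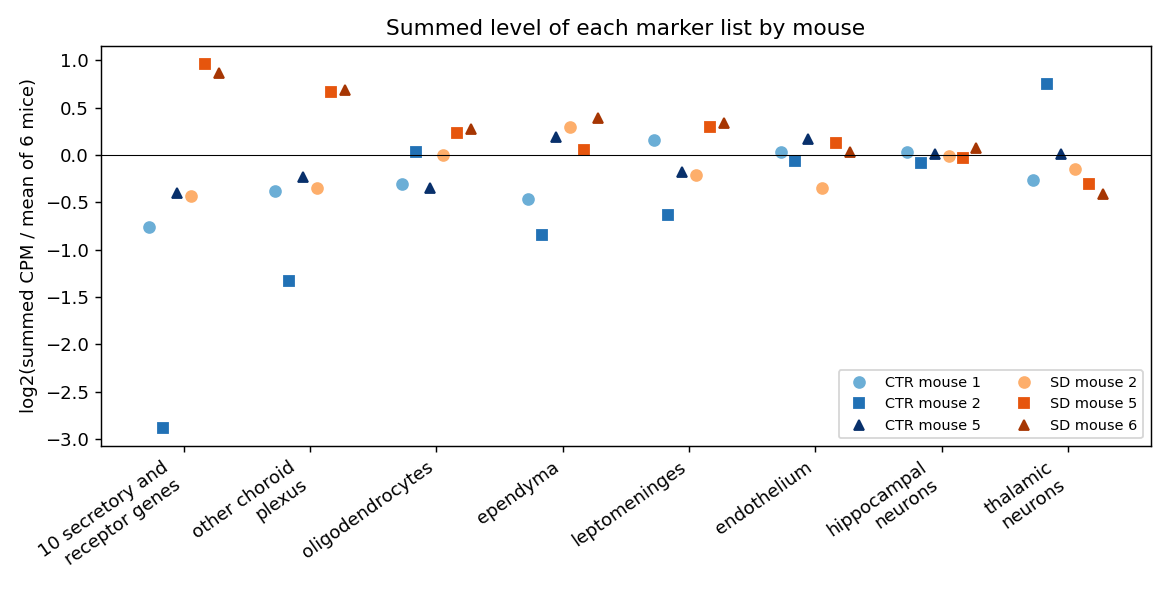
Log2 ratio of the summed CPM of each list in each mouse to the mean of the 6 mice. The sums of the 10 genes and of the other choroid plexus genes are lowest in CTR mouse 2 and highest in SD mice 5 and 6, the thalamic sum is highest in CTR mouse 2, and the hippocampal sum is nearly even.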

How the data were processed

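The deposited table holds whole-number counts per gene and mouse, made by the authors from poly(A)-selected RNA. Adapters were trimmed by Trim Galore, alignment to mm10 used Hisat2 with its defaults, and featureCounts assigned reads to genes in its reversely stranded setting. Reads that map to several places were counted too, and genes with close copies are therefore uncertain. SAMtools and Picard are also named in the notes of the submitters, without versions. The authors' DESeq2 fold changes and p-values in the table were not used. Every gene has at least 40 counts over the 6 mice.

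Counts were filtered with filterByExpr of edgeR 4.0.16 in R 4.3.3 (15345 of 15423 genes kept), scaled by TMM and fitted with glmQLFit and glmQLFTest without a covariate. SE is the fold change divided by the root of F. Adjusted p-values are Benjamini-Hochberg over all tested genes. Log2 CPM used a prior count of 2. Alternatives were DESeq2 1.42.0, DESeq2 size factors, upper quartile factors, no filter, an adjusted p, each mouse left out and a replicate block. The test was tested on simulated data.

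The 10 genes and all lists were chosen with earlier results of these data known. Named genes are the 10, the called and the most abundant genes of each partner list, the 4 called choroid plexus genes of smallest p and those not called, the 2 most abundant markers of each cell type (1 of which is not reported here), and the 8 genes most like the set (mean CPM of at least 1, not on chromosome 18). Lpar1, Slc19a1, Slc46a1, Jak2, Otx1 and Thbd were named after their values were seen. Exon lengths and coordinates are from GENCODE M21 (GRCm38), and promoters from RefSeq GRCm38.p6.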

Additional observations from a re-analysis of the deposited data

How the results depend on the processing

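All 10 genes kept their direction under every alternative. They were called with DESeq2 size factors, with upper quartile factors, without a filter, and without CTR mouse 2, CTR mouse 5 or SD mouse 2. They were also called with a replicate block, which compares only mice 2 and 5 of each group. DESeq2 called 6 of the 10 and left out Otx2 (log2 fold change 1.33), Clic6 (1.53), Tmem72 (1.71) and F5 (1.59), and it called 18 of the 40 other choroid plexus genes. At an adjusted p under 0.05 edgeR called 0 genes (1277 had an unadjusted p under 0.05), hence none of Enpp2 (1.61), Kl (1.39), Folr1 (2.14), Prlr (1.91), Otx2 (1.31), Calml4 (1.67), Clic6 (1.53), Tmem72 (1.70), Wfdc2 (2.14) and F5 (1.59), 0 of the 40 and 0 partner genes, while DESeq2 called 56 genes, with 0 in each of these sets, an alternative added after the data were seen.

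With each mouse left out in turn, 242 (without SD mouse 6) to 707 genes (without CTR mouse 5) were called, 5 to 10 of the 10 genes, 16 to 37 of the 40 and 2 to 10 partner genes (4 with all mice, 8 without SD mouse 2). The log2 fold changes then ranged from 1.16 to 2.06 for Enpp2, 0.98 to 1.72 for Kl, 1.63 to 3.16 for Folr1, 1.47 to 2.31 for Prlr, 0.88 to 2.14 for Otx2, 1.31 to 2.31 for Calml4, 1.05 to 2.08 for Clic6, 1.16 to 2.31 for Tmem72, 1.73 to 3.49 for Wfdc2 and 1.04 to 2.002 for F5, lowest without CTR mouse 2 in each. The cause was not tested.

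Relative to the other choroid plexus genes, the difference turned below 0 with mean log2 CPM as denominator for Kl (-0.043), and with the 6 genes for Enpp2 (-0.50), Kl (-0.82), Prlr (-0.29), Otx2 (-0.71), Calml4 (-0.50) and Clic6 (-0.44). Replicate numbers 2 and 5 occur in both groups, but nothing in the labels says that they pair the mice. The deviations of same-numbered mice correlated at 0.21 and 0.12 over all genes, and those of CTR mouse 1 and SD mouse 6 also at 0.12. With the replicate number as a block, CTR mouse 1 and SD mouse 6 stand alone in their blocks. That fit therefore compares only mice 2 and 5 of each group, which leaves very little per gene to estimate the spread from. It called 315 genes and all 10 of the set, with log2 fold changes of 1.36 to 2.44, and 36 of the 40. At an adjusted p under 0.05 it called 12 genes, unlike the edgeR fit without a block. Prlr and Kl were among them (unadjusted p of 3.3e-06 and 2.3e-05, edgeR with the block). Low counts limit the precision for Wfdc2, with 14 in CTR mouse 1 and 9 in CTR mouse 2, and for Tmem72, with 10 in CTR mouse 2.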
